A study of Mus musculus with 12 samples.

Results

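Collectins and complement genes made by stromal cells were described in the embryonic mouse testis of controls and of an Nr2f2 conditional knockout. The 9 genes were Colec10, Colec11, Colec12, Masp1, C3, C4b, C7, Serping1 and Cd55, out of 24470 genes in the count table. Colec10 was chosen because it had one of the largest falls in the Nr2f2 conditional knockout. It ranked 2 among the 410 genes called lower (edgeR adjusted p under 0.05) with groups apart and a mean of 1 CPM or more. It stood between Lmod1 and Aldh3b2, with log2 fold changes of -2.29 for Lmod1, -2.20 for Colec10 and -2.18 for Aldh3b2. Its values are therefore given as a description with no test. The other genes were added as its family and as stromal complement genes, with earlier results of these data known. All 9 were kept by the filter on low counts.

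Bulk RNA-seq was performed on whole testes at E14.5, in mid-gestation, from 6 control pools and 6 knockout pools, each pool holding 3 testes and giving 1 library. Control embryos were Nr2f2 f/f, with both Nr2f2 alleles floxed and no Cre. Knockout embryos (cKO) carried the same floxed alleles together with Wt1-CreER, a tamoxifen-dependent Cre expressed from the Wt1 locus in gonadal progenitor cells. Wt1-CreER was thus present in cKO embryos only, so its own effects cannot be told apart from those of Nr2f2 loss. Tamoxifen was given to the pregnant females on consecutive days before collection, so that control and cKO embryos were both exposed to it. The floxed allele carries a LacZ reporter, and per the study deletion was incomplete, so that cKO testes kept some NR2F2-positive interstitial cells. The labels tie no pool to a litter, and p-values measure the spread between these pools. In whole testes, fewer cells of a type and less RNA per cell cannot be told apart.

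Complement is a chain of blood and tissue proteins that marks surfaces and opens membranes. Its lectin route begins with collectins, proteins with a collagen-like stalk and a sugar-binding head. CL-L1 (Colec10) and CL-K1 (Colec11) form soluble complexes that recruit MASP proteases, and the same proteins act as guidance cues for migrating cells in the embryo. The proteases cut C4 and C2, and the products then cut C3. C5 to C9 assemble the membrane attack complex. C1 inhibitor (Serping1) restrains the chain in fluid, and CD55 restrains it on cell surfaces. Liver makes most plasma complement, whereas fibroblasts and other mesenchymal cells make several components locally.

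Library totals ran from 7044531 to 59404778 counts, and values are given as CPM, which are counts scaled to a fixed library total with TMM factors. Nr2f2, the targeted gene, had 162.5 to 185.9 CPM (median 175.6) in control pools and 50.2 to 118.6 CPM (median 77.1) in cKO pools. Its log2 fold change was -1.21 (edgeR adjusted p = 0.000548, by the quasi-likelihood test used throughout). Xist, the RNA of the inactive X chromosome in XX cells, passed 100 CPM in 4 pools (control replicate 1, cKO replicates 3, 5 and 6) and stayed at 5.15 to 7.68 CPM in the 8 remaining pools. The ovarian gene Foxl2 was at 14.6 to 47.2 CPM in these 4 libraries and at most 1.30 CPM in the others. These levels go against a content of XY testes alone in 4 of the 12 libraries, among them 3 of the 6 cKO libraries, and whether XX gonads were pooled in them was not tested. Values over 12 libraries include them, and the 8 libraries with low Xist are given beside each of the 9 genes. Of the 15572 genes tested, 4.85% were called lower and 3.28% higher in cKO testes at an edgeR adjusted p under 0.05. Within the 8 low-Xist libraries the balance turned, with 529 genes called lower and 574 higher of 15586 tested. The groups did not overlap for 3.13% of genes with cKO lower and 2.39% with cKO higher.

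Promoter sequence from RefSeq (GRCm38.p6, the same assembly as mm10), matched by gene number, is given for 4 of the 9 genes. The 250 bases before each annotated start are shown because Colec11 and C7 fell in cKO testes whereas C3 and Cd55 were not called. Promoters of the other genes, Colec12 among them, are not shown. NR2F2 is known to bind repeats of the motif AGGTCA, which was searched on both strands, its reverse complement being TGACCT. The windows are chr12:28623331-28623580 for Colec11, chr15:5063774-5064023 for C7, chr17:57228137-57228386 for C3 and chr1:130462745-130462994 for Cd55, all on the minus strand, and each is written 5′ to 3′ along its gene with AGGTCA in capitals.
Colec11: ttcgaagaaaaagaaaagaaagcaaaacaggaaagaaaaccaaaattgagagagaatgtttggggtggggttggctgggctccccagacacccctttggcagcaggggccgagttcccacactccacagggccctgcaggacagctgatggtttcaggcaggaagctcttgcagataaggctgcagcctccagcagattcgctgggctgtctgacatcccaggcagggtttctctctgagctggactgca
C7: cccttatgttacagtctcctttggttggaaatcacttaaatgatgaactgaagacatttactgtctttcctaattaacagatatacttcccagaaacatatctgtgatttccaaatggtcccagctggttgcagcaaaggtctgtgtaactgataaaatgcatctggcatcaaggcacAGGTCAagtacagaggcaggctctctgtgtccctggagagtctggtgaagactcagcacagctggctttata
C3: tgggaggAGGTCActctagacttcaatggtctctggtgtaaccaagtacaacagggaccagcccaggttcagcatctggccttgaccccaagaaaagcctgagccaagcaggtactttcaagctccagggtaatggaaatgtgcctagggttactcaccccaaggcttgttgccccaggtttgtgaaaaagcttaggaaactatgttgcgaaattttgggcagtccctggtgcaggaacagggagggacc
Cd55: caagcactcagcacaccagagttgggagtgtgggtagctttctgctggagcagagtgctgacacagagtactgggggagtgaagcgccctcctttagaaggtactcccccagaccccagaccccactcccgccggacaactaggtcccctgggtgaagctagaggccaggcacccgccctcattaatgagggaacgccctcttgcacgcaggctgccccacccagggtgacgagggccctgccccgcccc
C7 held the motif 72 bases before its start and C3 held it 243 bases before its start, both on the strand of the gene. These letters were not in the Colec11 or Cd55 window on either strand. Over all promoters of this length, 4607 of 32851 (14.0%) held the motif, and a match is a description of the sequence only.

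Of the 8 genes other than Colec10, 3 were called lower (Colec11, C7 and Serping1), 1 was called higher (Masp1) and 4 were not called (Colec12, C3, C4b and Cd55), beside 4.85% lower and 3.28% higher over all genes. The groups did not overlap for Colec11 and Serping1, which were lower in every cKO pool, and for Masp1, which was higher in every cKO pool, beside 3.13% and 2.39% over all genes. The median log2 fold change was -0.21 for the 9 genes and -0.17 for the 8 without Colec10, beside 0.00 over all genes tested.

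**Figure D1:**
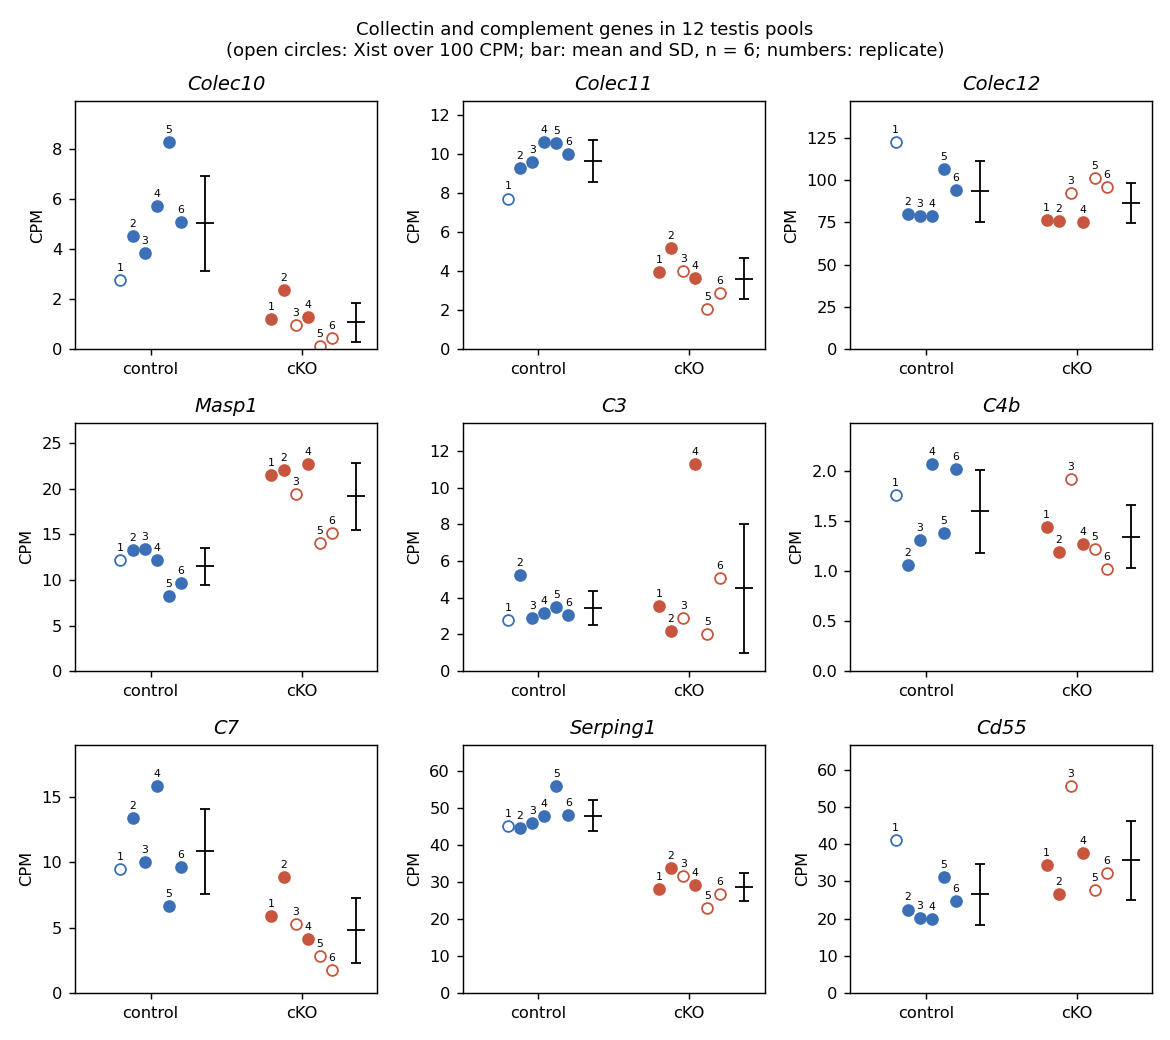
CPM of each of the 9 genes in 12 testis pools, with 1 circle per pool, the replicate number above it, and a bar for the mean and SD of each group (n = 6); each vertical axis starts at 0 and has its own scale. Open circles are the 4 pools with Xist over 100 CPM. All cKO pools lie under all control pools for Colec10, Colec11 and Serping1 and over them for Masp1, and C3 has 1 cKO pool at 11.3 CPM.

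Colec10 encodes the soluble collectin CL-L1 (chromosome 15 of mm10, 54410774 to 54466358, plus strand). Its level ran from 2.76 to 8.26 CPM (median 4.79) in control pools and from 0.136 to 2.38 CPM (median 1.08) in cKO pools. The groups did not overlap, with all 6 cKO pools below the control pools. The mean was 5.02 ± 1.89 CPM (SD, n = 6) in control and 1.07 ± 0.782 CPM (SD, n = 6) in cKO testes, and the fitted level was 4.60-fold lower (log2 fold change -2.20, standard error, SE, 0.40). Colec10 was counted 35 to 152 times per control library and 1 to 43 times per cKO library, and the single count was in cKO replicate 5, which had 7322959 counts in all. In the 8 libraries with Xist under 100 CPM its log2 fold change was -1.81.

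Colec11, the second soluble collectin and the partner of Colec10 in heteromeric complexes, fell in cKO testes (chromosome 12, 28594172 to 28623330, minus strand). It ran from 7.71 to 10.6 CPM (median 9.78) in control pools and from 2.04 to 5.16 CPM (median 3.78) in cKO pools. The highest cKO pool lay under the lowest control pool. The mean was 9.62 ± 1.07 CPM (SD, n = 6) in control and 3.61 ± 1.06 CPM (SD, n = 6) in cKO testes, 2.62-fold lower in the fit (log2 fold change -1.39, SE 0.17, edgeR adjusted p = 0.000284). In the 8 libraries with low Xist the log2 fold change was -1.26, with an edgeR adjusted p of 0.000561, and over all 23 alternatives the adjusted p ran from 1.46e-15 to 0.00577.

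Colec12, a membrane collectin that acts as a scavenger receptor, was not called. It had 78.8 to 122 CPM (median 87.0) in control pools and 75.2 to 101 CPM (median 84.5) in cKO pools, and the groups overlapped. Its log2 fold change was -0.12 (SE 0.12, edgeR adjusted p = 0.572). The highest control pool was replicate 1, and the highest cKO pools were replicates 3, 5 and 6, the pools with high Xist. In the 8 other libraries its log2 fold change was -0.20, with an edgeR adjusted p of 0.245, and over all alternatives the adjusted p ran from 0.0998 to 0.900. The 3 collectins therefore had log2 fold changes of -2.20, -1.39 and -0.12, and differences between genes were not tested.

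Masp1, the lectin pathway protease that Colec10 and Colec11 complexes carry, was higher in cKO testes (chromosome 16, 23451785 to 23520590, minus strand). It ran from 8.26 to 13.4 CPM (median 12.2) in control pools and from 14.1 to 22.7 CPM (median 20.5) in cKO pools. Every cKO pool lay above every control pool. The mean rose from 11.5 ± 2.07 CPM (SD, n = 6) to 19.2 ± 3.71 CPM (SD, n = 6), 1.66-fold higher (log2 fold change 0.73, SE 0.15, edgeR adjusted p = 0.00699). In the 8 libraries with low Xist the log2 fold change was 0.94, with an edgeR adjusted p of 0.00356 in a range of 6.03e-05 to 0.0255 over the alternatives. Masp1 also makes shorter products that share its first exons, and counts per gene do not separate them.

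Among Sertoli cell markers, 0 of 5 (Amh, Sox9, Dhh, Cldn11 and Aard) were called between the groups by edgeR, DESeq2 or limma-voom, and 0 had an unadjusted edgeR p under 0.05. Their summed level was 556 to 1028 CPM in control and 569 to 1011 CPM in cKO pools. Within the control group, the lowest Masp1 (8.26 CPM) and the lowest Amh (278 CPM) were both in replicate 5. Within the cKO group, Masp1 was lowest in replicates 5 and 6, at 14.1 and 15.1 CPM, where Amh was 375 and 333 CPM against 448 to 631 CPM in the other 4 pools. The part of Sertoli cell content in the levels of Masp1 was not tested.

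Serping1 encodes C1 inhibitor, which blocks C1r, C1s and the MASP proteases, and it fell in cKO testes (chromosome 2, 84765360 to 84775429, minus strand). It had 44.6 to 56.0 CPM (median 46.8) in control pools and 23.1 to 33.8 CPM (median 28.7) in cKO pools. The groups did not overlap, and control replicate 5 stood above the other control pools. The mean was 47.9 ± 4.19 CPM (SD, n = 6) in control and 28.8 ± 3.79 CPM (SD, n = 6) in cKO testes, 1.66-fold lower (log2 fold change -0.73, SE 0.09, edgeR adjusted p = 0.000318). In the 8 libraries with low Xist the log2 fold change was -0.67, with an edgeR adjusted p of 0.00331 in a range of 6.21e-12 to 0.00694 over the alternatives. All 5 contractile cell markers were called lower, with log2 fold changes from -1.28 to -0.31, and their summed level was 563 to 692 CPM in control and 335 to 514 CPM in cKO pools. Their part in the fall of Serping1 was not tested.

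C7, a terminal component that joins the membrane attack complex after C6, was called lower with a call close to the threshold (chromosome 15, 4988762 to 5063773, minus strand). It had 6.66 to 15.9 CPM (median 9.87) in control pools and 1.79 to 8.86 CPM (median 4.73) in cKO pools. Only cKO replicate 2, at 8.86 CPM, overlapped the control pools, and it lay above only control replicate 5, at 6.66 CPM. The mean was 10.9 ± 3.25 CPM (SD, n = 6) in control and 4.81 ± 2.5 CPM (SD, n = 6) in cKO testes, 2.28-fold lower (log2 fold change -1.19, SE 0.31, edgeR adjusted p = 0.0320). Leaving out each of control replicates 2, 3, 4 and 6 or cKO replicates 3, 4 and 5 moved the adjusted p to between 0.0507 and 0.0782, at log2 fold changes of -1.22 to -1.05. In the 8 libraries with low Xist the log2 fold change was -0.88, with an edgeR adjusted p of 0.0812, and the adjusted p ran from 0.00255 to 0.117 over all alternatives. The direction was the same in all 23 alternatives.

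**Figure D2:**
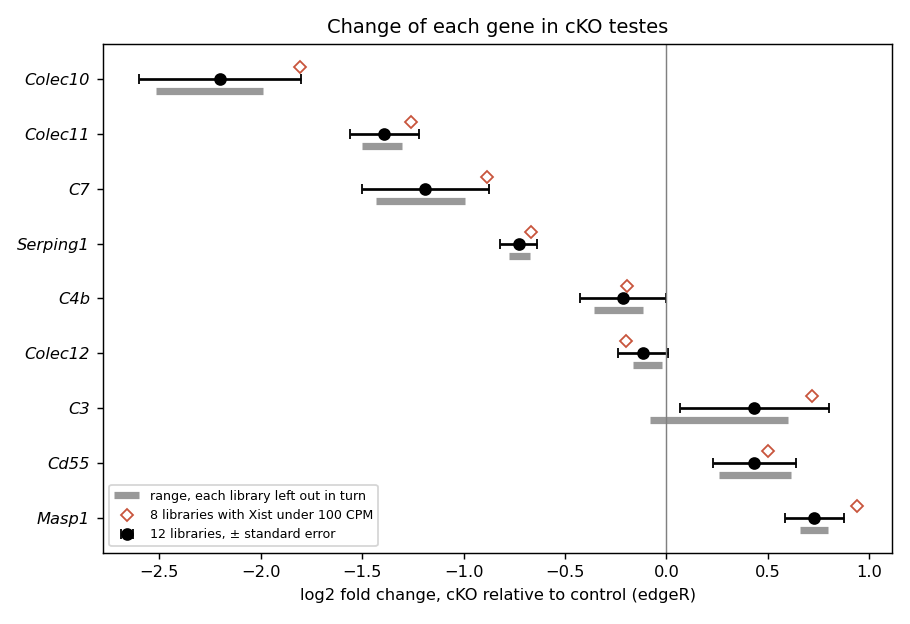
Log2 fold change of each gene in cKO relative to control testes, with black points for 12 libraries (bars are the standard error), open red diamonds for the 8 libraries with Xist under 100 CPM, and grey bars for the range over the fits that lack 1 library. The bars of Colec10, Colec11, C7, Serping1 and C4b lie left of 0 and those of Masp1 and Cd55 right of 0, the standard error bar of Colec12 reaches 0, and the grey bar of C3 crosses 0.

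C3, the central component that all complement routes cut, was not called (chromosome 17, 57203967 to 57228136, minus strand). It had 2.76 to 5.25 CPM (median 3.10) in control pools and 2.04 to 11.3 CPM (median 3.22) in cKO pools. The groups overlapped, and the highest cKO pools were replicate 4 at 11.3 CPM and replicate 6 at 5.07 CPM. Its log2 fold change was 0.43 (SE 0.37, edgeR adjusted p = 0.477). In the 8 libraries with low Xist it was 0.72, with an edgeR adjusted p of 0.276 in a range of 0.276 to 0.870 over the alternatives. Without cKO replicate 4 it was -0.08, and without both of these pools, an alternative chosen after the values were seen, it was -0.34.

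The same pools held the highest level of hepatocyte markers, which were included because an embryonic testis can be collected with tissue of other organs. Albumin (Alb) was at 99.7 CPM in cKO replicate 4 and 60.3 CPM in cKO replicate 6, and at 1.22 to 22.5 CPM in the other 10 libraries. The summed level of the 5 hepatocyte genes was 130 and 79.9 CPM in these pools. It was 5.69 to 32.7 CPM in control pools and 6.14 to 9.94 CPM in the other 4 cKO pools. Fgb, a fibrinogen chain and a defining hepatocyte gene, reached 3.68 and 2.65 CPM there and no more than 1.19 CPM in any other pool. Between the groups, 0 of the 4 hepatocyte markers tested were called by edgeR and 0 had an unadjusted p under 0.05, with 0 called by DESeq2 or limma-voom as well. The part of such RNA in the level of C3 was not tested.

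C4b, the substrate that C1s and MASP2 cut, had a low level in both groups (chromosome 17, 34728380 to 34743897, minus strand). It had 14 to 65 counts per control library and 9 to 67 per cKO library, or 1.60 ± 0.414 CPM (SD, n = 6) and 1.35 ± 0.314 CPM (SD, n = 6). The groups overlapped, and the log2 fold change was -0.21 (SE 0.21, edgeR adjusted p = 0.544), or -0.19 in the 8 libraries with low Xist (edgeR adjusted p = 0.621). C4b has a near-identical neighbour, C4a, and reads of one may have been counted on the other, so its level is uncertain. For C4a the means were 3.68 ± 0.723 and 2.72 ± 0.358 CPM (SD, n = 6) in control and cKO, so that it differed by -0.45 on the log2 scale (edgeR adjusted p = 0.0845). It was called lower by DESeq2 (adjusted p = 0.0456) and by edgeR with Xist as covariate (0.0252), in a range of 0.0252 to 0.316 over the alternatives. With the counts of both genes summed, an alternative chosen after the data were seen, the log2 fold change was -0.38, with an edgeR adjusted p of 0.119 in a range of 0.119 to 0.879 over the alternatives for C4b.

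Cd55, which speeds the decay of C3-cutting enzymes on the cell surface, was not called (chromosome 1, 130439026 to 130462744, minus strand). It had 19.9 to 41.1 CPM (median 23.6) in control pools and 26.6 to 55.7 CPM (median 33.3) in cKO pools. No cKO pool lay under the control median, but the groups overlapped. The log2 fold change was 0.43 (SE 0.21, edgeR adjusted p = 0.205). Control replicate 1 was the highest control pool, and without it the log2 fold change was 0.61, with an edgeR adjusted p of 0.0336 in a range of 0.0336 to 0.416 over the alternatives. It was 0.50 in the 8 libraries with low Xist (edgeR adjusted p = 0.0764). An antisense transcript, Gm16083, overlaps 102 bases of its exons on the other strand, and reads were counted by strand.

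Levels were compared between genes per kilobase of exon. Lengths took in the exons of all GENCODE transcripts of a gene, whereas counts were made on RefSeq Curated models. An order between genes therefore also depends on these lengths. In control testes Serping1 was the highest at 20.6 ± 1.80 CPM per kb (SD, n = 6). Colec12 followed at 10.7 ± 2.07, Colec11 at 5.93 ± 0.660, Cd55 at 5.48 ± 1.69 and C7 at 4.06 ± 1.21 CPM per kb. Masp1 had 1.17 ± 0.211, Colec10 1.09 ± 0.411, C3 0.669 ± 0.179 and C4b 0.281 ± 0.0727 CPM per kb. Serping1 and Colec12, Colec12 and Colec11, C7 and Masp1, and C3 and C4b were further apart than the SDs of the pools, whereas Colec11 and Cd55, Cd55 and C7, Masp1 and Colec10, and Colec10 and C3 lay within them.

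In cKO testes Colec10 was the lowest with C4b, at 0.232 ± 0.170 and 0.236 ± 0.0552 CPM per kb (SD, n = 6), and the spreads of these genes overlapped. Colec11 was at 2.23 ± 0.656 CPM per kb, near Masp1 at 1.95 ± 0.378 and C7 at 1.80 ± 0.933. Cd55, at 7.36 ± 2.19 CPM per kb, was above all of these.

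**Figure D3:**
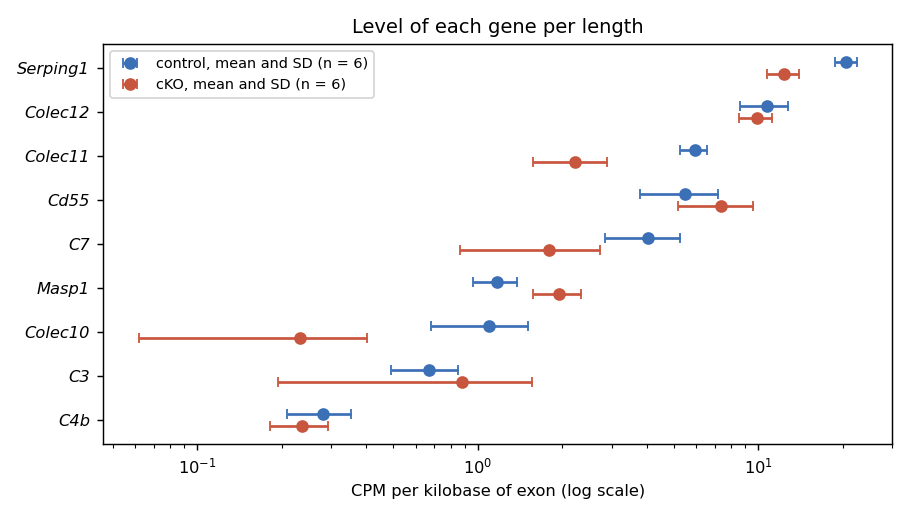
Mean CPM per kilobase of exon on a log axis for each of the 9 genes, blue for control and red for cKO testes, with bars for the SD (n = 6 pools). Serping1 leads in both groups at 20.6 and 12.4, and Colec10 drops from 1.09 to 0.232.

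The 4 genes that were lower in cKO testes were set beside the remaining Nr2f2 level of each pool. cKO replicate 2 had the highest Nr2f2 of the cKO pools, at 118.6 CPM, and also the highest Colec10 (2.38 CPM), Colec11 (5.16 CPM), C7 (8.86 CPM) and Serping1 (33.8 CPM). cKO replicates 5 and 6 had the lowest Nr2f2, at 50.2 and 53.6 CPM, and the lowest values of these 4 genes. Colec10 was 0.136 and 0.435 CPM there, Colec11 2.04 and 2.90 CPM, C7 2.85 and 1.79 CPM, and Serping1 23.1 and 26.7 CPM. The order was not particular to the genes that were lower, since Masp1, which was higher in cKO testes, also had its lowest cKO values in replicates 5 and 6 (14.1 and 15.1 CPM), and it stood at 22.1 CPM in replicate 2, near its highest cKO value of 22.7 CPM in replicate 4. The summed level of interstitial progenitor markers was 968 CPM in cKO replicate 2, the highest of the cKO pools, and 537 and 601 CPM in replicates 5 and 6, the lowest. That of fetal Leydig cell markers was lowest in the same pools, at 841 and 932 CPM in replicates 5 and 6, and replicates 1 and 2 were close to each other at the top, at 1723 and 1745 CPM. The part of these cells in the order of the pools was not tested. Replicates 5 and 6 are also pools with high Xist, and in cKO replicate 3, with high Xist and 75.4 CPM of Nr2f2, Colec10 was 0.976 CPM and Colec11 4.02 CPM. In control pools Nr2f2 lay between 162.5 and 185.9 CPM, and the highest Colec10 (8.26 CPM) was in control replicate 5, which had the lowest Nr2f2 of the group.

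**Figure D4:**
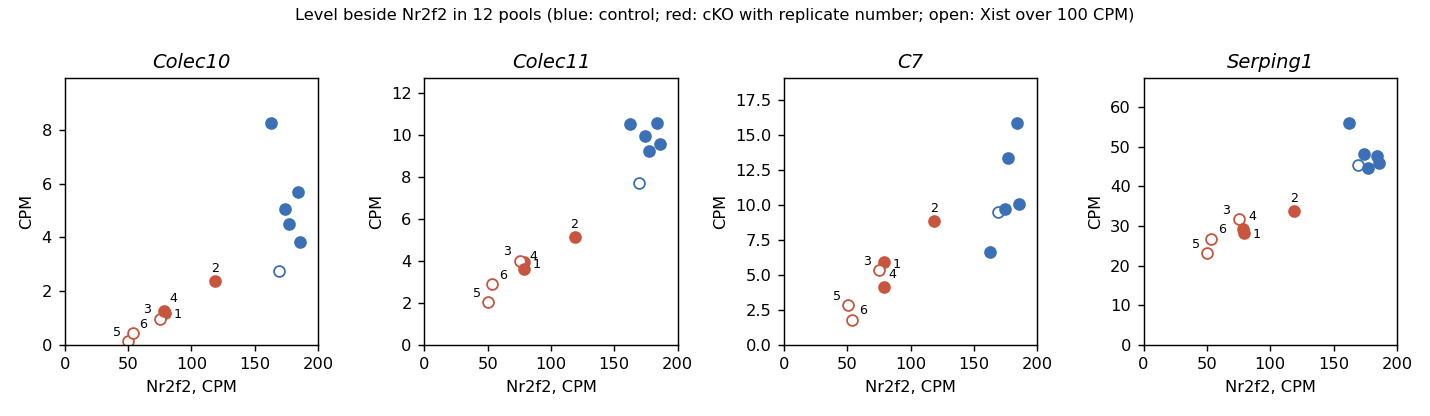
CPM of Colec10, Colec11, C7 and Serping1 against CPM of Nr2f2 in 12 pools, blue for control, red for cKO with the replicate number, and open for Xist over 100 CPM. cKO replicate 2 is the highest cKO pool and replicates 5 and 6 the lowest in each panel.

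The 5 markers of interstitial progenitors, which are among the cells that express Nr2f2, moved in both directions. Tcf21 and Wnt5a were called lower, at log2 fold changes of -1.03 and -0.64, and Adam23 was called higher at 0.70, whereas Pdgfra (-0.41) and Inhba (0.10) were not called. Their summed level was 888 to 1171 CPM in control and 537 to 968 CPM in cKO pools, and the mean of their log2 CPM differed by -0.28. Of 5 fetal Leydig cell markers, 4 were called lower, with log2 fold changes from -2.35 to -0.19 over the 5, and their summed level was 1561 to 2910.4 CPM in control and 841 to 1745 CPM in cKO pools. The part of either cell type in the levels of Colec10, Colec11, C7 and Serping1 was not tested.

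Similarity of pattern was measured as Pearson's r of log2 CPM after centring within each genotype, over 12 libraries and 14262 genes whose mean reached 1 CPM. The 3 genes most like Colec10 were Plagl1, Clmp and Net1 (r = 0.969, 0.969 and 0.968). Those most like Colec11 were Clmp, Mfap4 and Plagl1 (0.971, 0.967 and 0.966), and those most like Serping1 were Ptgis, Rhoj and Il1r1 (0.971, 0.968 and 0.958). Each of these 7 genes was itself called lower in cKO testes, with log2 fold changes from -1.05 for Ptgis to -0.48 for Il1r1. For C7, also called lower, they were Spata21, Fign and Kcnd3 (0.963, 0.961 and 0.960), none of which was called. For Masp1 they were Reep4, Gfra2 and Svil (0.973, 0.968 and 0.965), none of which was called. For Colec12 they were Aifm2, Akr1c14 and Krt18 (0.982, 0.976 and 0.973), and for Cd55 they were Zc3h12b, Car9 and Lnx1 (0.952, 0.932 and 0.930). C3 had 9030625G05Rik, Tnnt3 and Rita1 (0.850, 0.830 and 0.810), and C4b had Gorasp1, Adamts8 and Spef1 (0.938, 0.842 and 0.831).

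None of the genes named for Colec12, Cd55, C3 and C4b was called. These are the highest values among many genes, and all values of a library share its depth, its Nr2f2 level and its Xist level. Among the 9 genes themselves, Colec10 and Colec11 had the highest r (0.966), followed by Colec10 with Serping1 (0.897) and Colec11 with Serping1 (0.880). The lowest was Colec12 with Masp1 (-0.68).

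The rest of the complement system was followed in a list of 49 further genes, all of them in the count table, of which 34 passed the filter. Of these 34, 1 was called lower and 3 were called higher, beside 4.85% lower and 3.28% higher over all genes. Their median log2 fold change was 0.06, beside 0.00 over all genes. Among recognition molecules, the C1q subunits had the highest CPM. C1qb was called higher (5.04 ± 1.22 CPM in control and 7.69 ± 1.07 CPM in cKO, SD, n = 6, log2 fold change 0.64, edgeR adjusted p = 0.0255), whereas C1qc, the gene with the highest mean, was not called, with 0.44 on the log2 scale (edgeR adjusted p = 0.135). C1qc was called higher by limma-voom (adjusted p = 0.0418) and by edgeR without control replicate 5 (0.0153), and not by DESeq2 (0.0850). C1qa lay just over the threshold (log2 fold change 0.62, edgeR adjusted p = 0.0554). C1qa was called higher by DESeq2 (adjusted p = 0.0152) and limma-voom (0.0179), but not in the 8 libraries with low Xist (edgeR adjusted p = 0.0887). The call of C1qb was lost without control replicate 3 or 4 or cKO replicate 4 or 6, at log2 fold changes of 0.58 to 0.63 and edgeR adjusted p of 0.0520 to 0.0659. It was also lost in the 8 libraries with low Xist, at 0.69 on the log2 scale and an edgeR adjusted p of 0.0644, in a range of 0.00194 to 0.180 over the alternatives. Mannose-binding lectin 2 (Mbl2), another soluble collectin, had 3.75 ± 0.648 and 3.28 ± 0.570 CPM (SD, n = 6) and was not called (log2 fold change -0.15, edgeR adjusted p = 0.550). Mbl1, Sftpa1 and Sftpd were below the filter.

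Among proteases 0 of 7 were called by edgeR and 0 by limma-voom, whereas 2, C1s1 and C1ra, had an unadjusted edgeR p under 0.05. C1s1 had a log2 fold change of -0.69 and lay just over the threshold (edgeR adjusted p = 0.0535). It was called lower by DESeq2 (adjusted p = 0.0139), and by edgeR with Xist as covariate (0.0115) and without control replicate 1 (0.0448) or control replicate 6 (0.0378), in a range of 0.0115 to 0.209 over the alternatives. C1ra had the highest mean in this role, 13.2 ± 1.98 and 10.7 ± 1.78 CPM (SD, n = 6), and its difference was -0.30 on the log2 scale (edgeR adjusted p = 0.156). Of the central components, C4a is given above and Hc, which encodes C5, was below the filter.

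Among terminal components C6, which binds C5b before C7, was called lower. It had 9 to 27 counts in control and 1 to 12 counts in cKO libraries, and no cKO pool reached the lowest control pool (0.841 ± 0.402 and 0.151 ± 0.126 CPM, SD, n = 6). Its log2 fold change was -2.41 (SE 0.50, edgeR adjusted p = 0.00830). It was called in 20 of the 21 alternatives in which it passed the filter, and not with cKO replicates 4 and 6 left out together (edgeR adjusted p = 0.0908). Its log2 fold change ran from -3.09 in the low-Xist libraries to -1.86 without those pools, and it was -3.05 without cKO replicate 3. C6 lies near C7 on chromosome 15 but on the plus strand, from 4727210 to 4804045. C8g had the highest mean in this role and was not called (log2 fold change 0.19, edgeR adjusted p = 0.503).

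Clusterin (Clu), the fluid-phase gene with the highest mean, had 545 ± 55.9 and 623 ± 93.4 CPM (SD, n = 6) and was not called (log2 fold change 0.19, edgeR adjusted p = 0.253).

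Among membrane regulators Csmd2 was called higher at a low level (0.718 ± 0.292 and 1.38 ± 0.398 CPM, SD, n = 6, log2 fold change 1.06, edgeR adjusted p = 0.0245), and Cr1l, with the highest mean, was not (log2 fold change -0.14, edgeR adjusted p = 0.382). The call of Csmd2 was lost without control replicate 2 or 3 or cKO replicate 1 or 4, at log2 fold changes of 0.91 to 1.04 and edgeR adjusted p of 0.0521 to 0.0640, in a range of 0.00418 to 0.131 over the alternatives. Among receptors C3ar1, the receptor for the C3a fragment, was called higher and its groups did not overlap (2.34 to 3.90 CPM in control and 4.10 to 6.64 CPM in cKO). Its log2 fold change was 0.75 (SE 0.16, edgeR adjusted p = 0.00947). It was called in 22 of 23 alternatives, and not with cKO replicates 4 and 6 left out together (edgeR adjusted p = 0.0747). Cd93 had the highest mean of the receptors and was not called (log2 fold change 0.16, edgeR adjusted p = 0.468). Without control replicate 1 Cd93 was called higher (log2 fold change 0.30, edgeR adjusted p = 0.0348). C1q and C3ar1 are known as genes of macrophages, and 2 of 7 macrophage markers, Csf1r and Cx3cr1, were also called higher. The other 5 (Adgre1, Mrc1, Fcgr1, Tyrobp and Ptprc) were not called. Their log2 fold changes ran from -0.08 for Ptprc to 0.54 for Adgre1. The summed level of the 7 markers was 41.1 to 62.4 CPM in control and 57.4 to 70.5 CPM in cKO pools, and the part of macrophages in the rises was not tested.

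**Figure D5:**
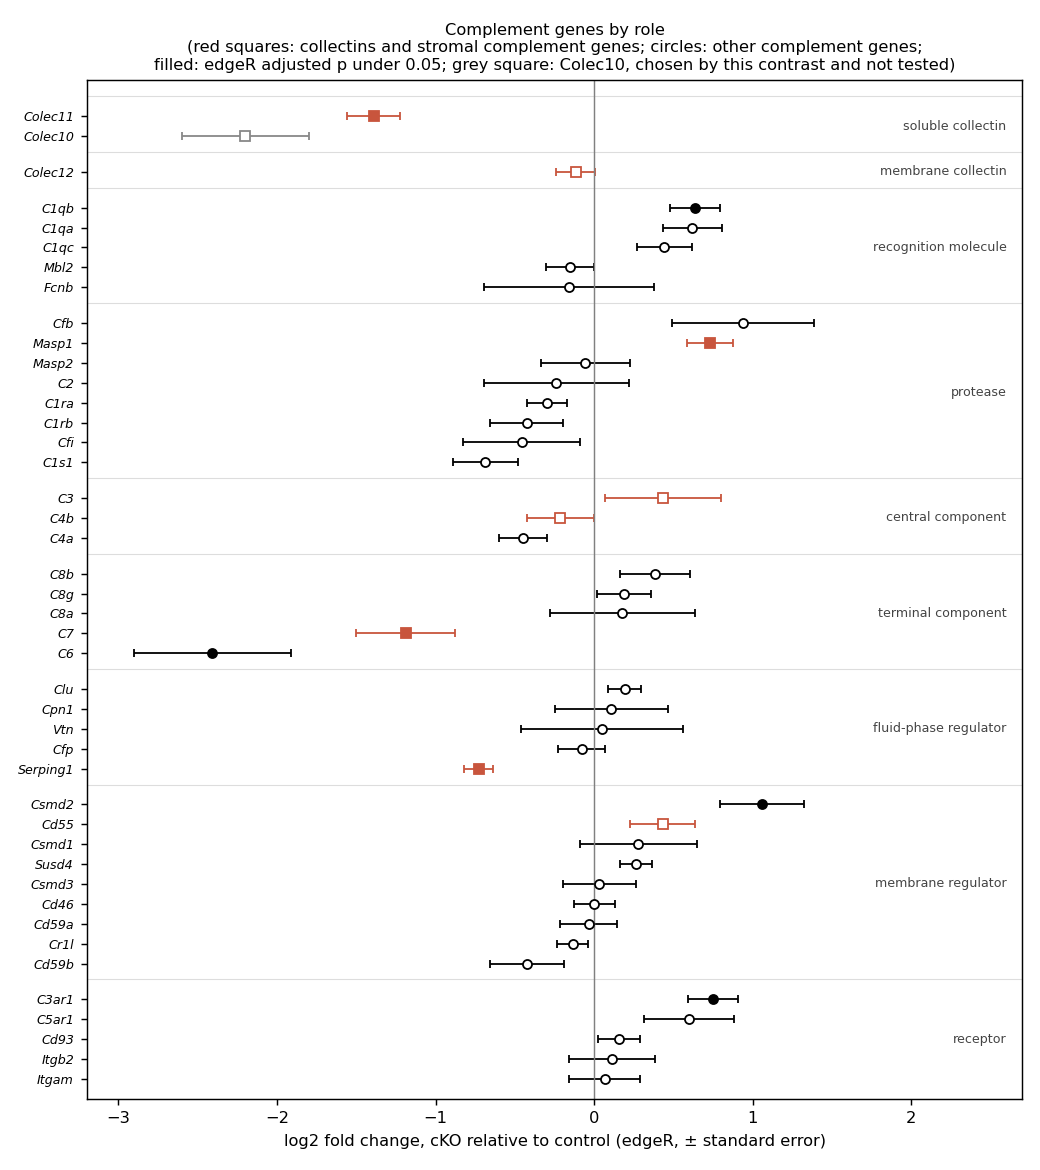
Log2 fold change of the 9 genes (squares) and of 34 other complement genes (circles), grouped by role, with bars for the standard error. Filled symbols had an edgeR adjusted p under 0.05, and the grey square is Colec10, which was not tested. The filled symbols left of 0 are Colec11, C6, C7 and Serping1, and those right of 0 are C1qb, Masp1, Csmd2 and C3ar1.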

How the data were processed

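RNA-seq was measured in 12 pools of testes at E14.5. Per the submitters' processing notes and the study's methods, the authors trimmed read pairs with Trim Galore 0.6.7, aligned them to mm10 with STAR 2.5 and counted them by strand on RefSeq Curated gene models with featureCounts (Subread 1.5.0-p1). They deposited raw counts per gene, with no normalization. The library preparation selects polyadenylated RNA.

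The analysis used edgeR 4.0.16 under R 4.3.3 (TMM scaling, filterByExpr at a per-library minimum of 10 and a total of 15 counts, glmQLFit and glmQLFTest, no covariate). Benjamini-Hochberg adjustment ran over all 15572 genes tested, and 0.05 was the threshold. Standard errors were obtained from the F statistic (absolute log2 fold change over the root of F). Where a log2 of CPM was taken, the prior count was 2. Gene positions were those deposited with the counts, and exon lengths and exon overlaps came from GENCODE M21, on the same build. The fit was tested on simulated data. No pools of one genotype agreed within counting noise.

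The genes described and all lists were chosen with earlier results of these data known. Named genes were the 9 genes, each other complement gene called, the gene with the highest mean CPM in each role, the 3 most alike genes of each of the 9, and cell type markers beside the results they touch. Mbl2, C1qa, C1s1, Fgb and the genes listed as below the filter were named after their values were seen. Alternatives were other scalings and filters, DESeq2 1.42.0, limma-voom (limma 3.58.1), a replicate block, Xist as covariate, the 8 libraries with Xist under 100 CPM, and leaving out each library. Part of these results is not reported here, and the lists were counted without it. Summing C4b with C4a and Cd55 with Cd55b, and leaving out cKO replicates 4 and 6 together, were added after the data were seen.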

Additional observations from a re-analysis of the deposited data

Results flagged for a closer look

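Serping1 in control replicate 5 was 56.0 CPM and stood apart from the other 5 control pools, which lay between 44.6 and 48.1 CPM. On the log2 CPM scale, the gap to the nearest pool was 0.662 of the range of the group, over the critical value of 0.625 for 6 samples. It was the only such case among the 18 groups examined (9 genes in each genotype), and chance gives about 1 in 20. The pool also had the highest Colec10 (8.26 CPM) of the control pools. Without it Serping1 kept its fall.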

How the results depend on the processing

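Colec11, Serping1 and Masp1 kept their direction and their call in all 23 alternatives, and Colec12 and C4b stayed uncalled in all 23. For C7 the low-Xist libraries gave a log2 fold change of -0.88, and it was -0.90 with cKO replicates 4 and 6 left out together, and neither was called. It ran from -1.43 to -0.99 when each library was left out. The log2 fold change of C3 was -0.34 with cKO replicates 4 and 6 left out together and ran from -0.0818 (without cKO replicate 4) to 0.60 when each library was left out. That of Cd55 ran from 0.26 to 0.61, and it was called without control replicate 1, which brought the genes called higher to 2 (1 to 2 over the libraries left out). Causes were not tested. Of the other complement genes, 0 were called lower with a filter at a mean of 1 CPM and 0 without control replicate 3, where C6 was not tested and 3 (C1ra, C1s1 and C4a) had an unadjusted edgeR p under 0.05. DESeq2 and Xist as covariate each called 3 lower (0 to 2 when each library was left out). The number called higher was 5 with limma-voom and 0 with cKO replicates 4 and 6 left out together, and ran from 1 to 5 when each library was left out. With these pools left out together Vtn turned from 0.05 to -1.46 on the log2 scale and was called lower (edgeR adjusted p = 0.0386, in a range of 0.0386 to 0.994 over the alternatives). With 0 called, 5 of these genes (C1qa, C1qb, Clu, Csmd2 and C3ar1) were higher at an unadjusted p under 0.05.

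Over all genes, edgeR called 1266 genes and DESeq2 1919. The edgeR number was 3106 without control replicate 1, 816 without cKO replicate 4 and 438 with cKO replicates 4 and 6 left out together. With a replicate block the number was 931, and the block changed no call of the 8 genes tested (Colec10 was not tested). Same-numbered pools had correlations from -0.35 to 0.29, and in 0 of 6 numbers did a pool correlate best with its own number. The pools with high Xist and those with high albumin were among the pools correlated. Pairing of the pools by litter or batch was not tested. Among the 9 genes the lowest counts in a library were 1 for Colec10 and 9 for C4b, and C6 had as few as 1.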

Other observations

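Cd55b, the testis paralog of Cd55, was at 1.87 CPM in control replicate 1 and 1.87 CPM in cKO replicate 3, with 69 and 65 counts, and at most 0.151 CPM in the other 10 libraries. These are the pools with the highest Cd55 in each genotype (41.1 and 55.7 CPM). Itgax, the alpha chain of complement receptor 4, was at 1.08 and 1.26 CPM in the same pools and at most 0.356 CPM elsewhere. C2, the protease subunit of the classical and lectin C3-cutting enzyme, was at 13.4 CPM in control replicate 1 against 1.74 to 5.71 CPM in the other 11 pools. Cd55b, Itgax and C2 were picked here for these values.

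Among complement genes that the liver makes, Hc and Cfb were highest in the pools with high albumin. Hc was at 1.96 CPM in cKO replicate 4 and 0.904 CPM in cKO replicate 6, and at most 0.689 CPM in the other libraries. Cfb was at 2.31 and 1.34 CPM in these pools and at most 0.995 CPM elsewhere, and vitronectin (Vtn) was at 2.46 CPM in cKO replicate 4, 1.16 CPM in cKO replicate 6 and at most 1.38 CPM elsewhere. Mbl2, also a liver product, was at 3.68 and 2.95 CPM in these pools, within the 2.44 to 4.48 CPM of the other libraries. These 4 genes, too, were picked with their values known.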
